A study of Arabidopsis thaliana with 48 samples.

Results

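The genes described here are the 150 Arabidopsis genes whose transcript level in well-watered wild-type plants stood highest at ZT12 relative to any other time sampled. Zeitgeber time (ZT) is counted in hours after lights-on. A level was a gene's share of all counts in a library, given in the usual unit CPM, averaged over the 2 libraries of each time. Genes with at least 20 CPM at ZT12 were ranked by log2 of the ZT12 mean plus 1 over the highest of the ZT1, ZT8 and ZT16 means plus 1. The first 150 of 26988 genes in the table were taken, and TOC1, ELF3, ELF4, LUX and the PRR genes of the circadian clock were to be left out, but 0 of them were among the 150. The members were thus chosen by their values in wild type under normal watering, so those values are given as a description with no test. The other 5 combinations of genotype and watering played no part in the choice.

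The groups were the mutants gi-2 and aba1-6 and wild type, all of ecotype Columbia, each under drought or normal watering at ZT1, ZT8, ZT12 and ZT16, with 2 libraries per group and 48 in all. gi-2 is a mutant allele of GIGANTEA (GI), and aba1-6 of ABA1, which encodes the enzyme that makes violaxanthin on the path to abscisic acid (ABA). Soil water content was held at 30% under drought, starting shortly after germination, and between 80 and 90% under normal watering. All plants were 3 weeks old and had grown in short days of 8 h light. At ZT8 they were transferred to a 16 h long day, so ZT1 and ZT8 belong to the short day, while ZT12 and ZT16 came in the added light. No group stayed dark after ZT8, so time of day and the added light cannot be told apart. Each library was poly(A) RNA from the pooled shoots of about 50 seedlings from 3 pots. Each mutant was represented by a single allele.

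Time-of-day rhythms in plants arise from the circadian clock, a loop of transcription factors that repress each other in turn from dawn to night, and from direct responses to light and sugar. GI is an evening protein that stabilizes the photoreceptor ZEITLUPE and, with FKF1, removes repressors of CONSTANS, which activates the flowering gene FT in long days. ABA is the hormone of water deficit, and its response is itself gated by the clock. Genes with an evening maximum in shoots are known among clock components and regulators of flowering.

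The promoters of 4 members described below, the pair called as peaks in wild type under drought and both H3 histone genes, are shown first, as the 300 bases before the annotated gene start, 5′ to 3′ on the gene's strand, from the RefSeq assembly TAIR10.1. The first belongs to AT3G20810, also named JMJD5, a jumonji-domain oxygenase tied to the clock (chr3:7275345-7275644, plus strand). The second belongs to NF-YB2, a histone-fold subunit of the CCAAT-binding NF-Y complex (chr5:19308927-19309226, plus strand). The others belong to the histone genes AT5G65360 (chr5:26120582-26120881, minus strand) and AT5G10400 (chr5:3270958-3271257, minus strand). Capitals mark the motifs searched for, each on both strands.
AT3G20810: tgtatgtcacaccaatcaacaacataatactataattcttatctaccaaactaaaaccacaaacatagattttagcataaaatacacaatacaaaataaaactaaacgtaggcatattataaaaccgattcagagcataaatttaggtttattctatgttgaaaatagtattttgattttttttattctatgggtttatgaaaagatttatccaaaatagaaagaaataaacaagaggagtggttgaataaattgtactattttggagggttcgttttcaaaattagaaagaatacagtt
NF-YB2: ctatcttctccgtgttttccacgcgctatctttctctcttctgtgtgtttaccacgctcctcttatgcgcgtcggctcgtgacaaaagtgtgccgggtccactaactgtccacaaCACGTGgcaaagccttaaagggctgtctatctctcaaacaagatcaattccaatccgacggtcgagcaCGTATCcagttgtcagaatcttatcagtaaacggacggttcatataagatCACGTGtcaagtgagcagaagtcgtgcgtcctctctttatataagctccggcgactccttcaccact
AT5G65360: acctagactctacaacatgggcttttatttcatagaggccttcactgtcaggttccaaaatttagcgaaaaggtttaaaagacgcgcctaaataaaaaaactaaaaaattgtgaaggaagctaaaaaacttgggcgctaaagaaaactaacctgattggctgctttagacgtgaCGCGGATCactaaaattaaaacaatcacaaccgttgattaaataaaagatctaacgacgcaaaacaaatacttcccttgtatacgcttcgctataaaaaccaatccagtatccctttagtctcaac
AT5G10400: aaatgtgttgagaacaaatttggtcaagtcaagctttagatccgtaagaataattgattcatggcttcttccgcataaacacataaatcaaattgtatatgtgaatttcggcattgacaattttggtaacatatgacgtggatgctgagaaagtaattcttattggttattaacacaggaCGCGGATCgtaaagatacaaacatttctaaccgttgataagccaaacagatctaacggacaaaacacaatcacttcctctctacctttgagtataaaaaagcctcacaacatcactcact
The capitals in NF-YB2 are 2 copies of the G-box, CACGTG, and 1 LUX-binding site, GATACG or GATTCG, on the other strand. In the histone genes they are the octamer CGCGGATC, and in AT3G20810 none of the searched letters occurred. All 150 members matched a promoter. The evening element AAAATATCT lay in 3 members (2%), against 2.79% of all 27443 promoters of this length. The related CCA1-binding site AAAAATCT lay in 12 members (8%), against 7.94% of all. The G-box lay in 13 (8.67%), against 7.09% of all, and the LUX-binding site in 11 (7.33%), against 14.3% of all. The telo-box AAACCCT lay in 11 (7.33%), against 8.51% of all, and the octamer in 2 (1.33%), against 0.149% of all, which is 41 promoters. Those 2 are the histone genes printed above, so the octamer's share is no result about the other members. The evening element and the CCA1-binding site differ in their letters, so a match to the one is no match to the other. These are matches of letters in a window and not binding sites.

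Across the series, totals ran between 1920012 and 26925706 counts per library, with wild type under drought at ZT16, replicate 2, the second shallowest at 2289812. The library of gi-2 under drought at ZT16, replicate 2, carries gi-2 in its title but wild type in its genotype tag. The title decided its group, and without this library 0 peaks were called in gi-2 under drought, as with it. GI was still transcribed in gi-2, at 118 and 107 CPM at ZT12 under drought, against 89.5 and 63.0 CPM in wild type. At ZT16 its level separated the genotypes, with 54.2 CPM in replicate 1 and 56.1 CPM in the doubtful replicate 2 of gi-2 under drought, against 22.8 and 13.85 CPM in wild type. Under normal watering GI at ZT16 was at 51.5 and 52.5 CPM in gi-2, against 13.75 and 11.2 CPM in wild type, so by GI the doubtful library lay with gi-2, as in its title. ABA1 was also transcribed in aba1-6, at 85.4 and 83.5 CPM at ZT12 under drought, against 129 and 75.8 CPM in wild type, where the groups overlapped. All 5 leaf markers were detected, with summed levels at ZT12 under drought of 29329 to 30534 CPM in gi-2, 20748 to 20878 CPM in aba1-6 and 20104 to 22882 CPM in wild type, and their part in the mutant differences was not tested. Guard cell markers, 4 of 4 detected, summed to 53.1 to 56.0 CPM in gi-2, 66.9 to 77.5 CPM in aba1-6 and 48.1 to 49.2 CPM in wild type at ZT12 under drought, likewise not tested. Root markers summed to 0.84 to 32.3 CPM over all libraries, with 4 of 5 detected and lower sums under drought at ZT12, as given beside the drought comparison, and floral markers to 0.421 to 4.35 CPM. Of the 150 members, 53 overlap another annotated gene, among them NF-YB2, NF-YC2, CYP81K1, RPM1, PCNA2 and AT4G35750. Whether counting used strand is not given in the sources used here, so reads of such pairs cannot be told apart.

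Of the 26988 genes, 8895 had at least 20 CPM at ZT12 in well-watered wild type, and 2474 of these (27.8%) had their highest mean at ZT12, beside 1903 at ZT1, 2144 at ZT8 and 2374 at ZT16. The ZT12 excess that chose the members was small for most of them. The log2 ratio ran between 0.33 and 1.85 with a median of 0.40. Only 5 members had a ZT12 value, plus 1, at least 1.5 times that of the next highest time and 2 at least 2 times, while 127 lay under 1.4 times. The 2 were AT2G01021 (log2 ratio 1.85) and MAPR2 (1.25), for which the libraries of many groups disagreed, as given below. AT5G27710, next in rank, had 0.77. The next highest time was ZT16 for 87 members, ZT8 for 48 and ZT1 for 15. The ZT12 level ran between 20.1 and 738.5 CPM with a median of 29.3 CPM, and 79 members lay under 30 CPM.

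The 12 members first in rank were AT2G01021, MAPR2, AT5G27710, AT3G20810, CYP72A8, AT2G25010, RAB11c, AT1G58848, AT5G44660, AT3G61280, AT5G21940 and AT2G45720. Just inside the end of the ranking, AIB, a basic helix-loop-helix factor, had a log2 ratio of 0.33, as had the TCP-family factor TCP3 and the glycosyl hydrolase AT1G62660. Just outside it, AT3G23840, RUS3 and ALP also had 0.33. The last places therefore do not separate genes that differ in ZT12 excess.

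The choice also leaned on a shallow library. The well-watered wild-type library of ZT12, replicate 1, had the lowest total of all 48, at 1920012 counts, against a highest total of 26925706. The median log2 ratio of the members was 0.50 within replicate 1 and 0.22 within replicate 2, and 97 members had the higher ZT12 value in replicate 1. By CPM of library totals, ZT12 was highest in each replicate for 142 of the 150, and both ZT12 libraries lay above the 6 others for 118. On the scaled levels used below for the other groups, both lay above the 6 others for 92. Ranking by replicate 2 alone gave 47 of the same 150 genes, and ranking by replicate 1 alone gave 72.

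Outside the libraries that chose them, the members kept a tendency to be highest at ZT12, with many exceptions. By mean level scaled with TMM (trimmed mean of M values), ZT12 was the highest time for 71 members in gi-2 under drought (47.3%) and 51 in gi-2 under normal watering (34%). It was the highest time for 76 in aba1-6 under drought (50.7%), 78 in aba1-6 under normal watering (52%) and 65 in wild type under drought (43.3%). Among 8745 other genes with at least 20 CPM in the well-watered wild type at ZT12, the shares in the same order were 18.2%, 18.1%, 17%, 18.5% and 17.1%. The remaining members of wild type under drought were highest at ZT16 (45), ZT8 (28) or ZT1 (12). In gi-2 under normal watering, the group with the fewest ZT12 maxima, 31 members were highest at ZT1, 33 at ZT8 and 35 at ZT16.

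A stricter count asked that both ZT12 libraries lie above the 6 libraries of the other times. It held for 25 members in gi-2 under drought (16.7%, against 4.77% of other genes), 16 in gi-2 under normal watering (10.7%, against 4.38%) and 29 in aba1-6 under drought (19.3%, against 3.89%). It held for 24 in aba1-6 under normal watering (16%, against 4.21%) and 23 in wild type under drought (15.3%, against 3.05%). The 5 groups shared no library with each other or with the choice.

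ZT12 was the highest time in 5 of these 5 groups for 13 members (8.67%, against 1.34% of other genes), in 4 for 23 (15.3%, against 3.59%) and in 0 for 21 (14%, against 54.3%). The 13 were AT3G20810, NF-YB2, CYP72A8, CYP81K1, CYP705A19, AT5G21940, AT5G65360, PIP2, AT2G38870, AT3G51130, AT2G19310, BARD1 and PCC1. The mean number of groups was 2.44 for ranks 1 to 25, 2.64 for ranks 26 to 75 and 1.97 for ranks 76 to 150. With the replicate 2 libraries alone, 6 members reached 5 of 5 groups. A set of 150 chosen from replicate 1 alone held 8 such genes, and a set chosen from replicate 2 alone held 16.

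**Figure D1:**
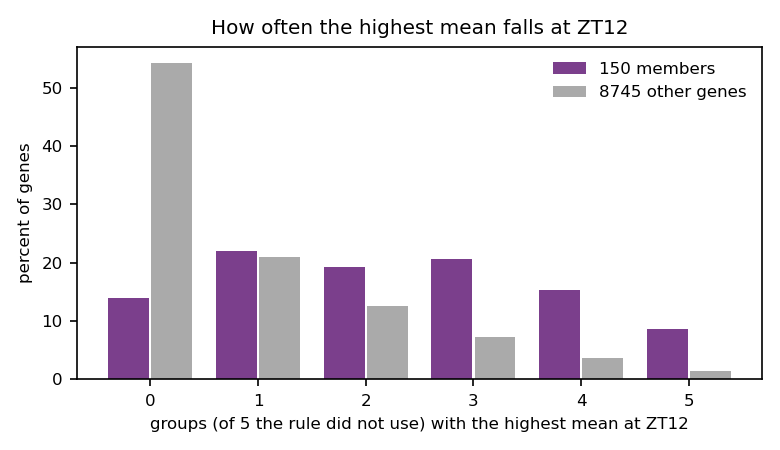
Percent of genes (vertical axis) by the number of the 5 groups outside well-watered wild type in which ZT12 had the highest mean (horizontal axis), for the 150 members (purple) and 8745 other genes with at least 20 CPM (grey). Most other genes (54.3%) sit at 0 groups, while 14% of the members do and 8.67% reach 5 groups.

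Sorted by role, with roles assigned after the values were seen and therefore not tested, the members spread over many functions. The classes were 33 other or uncharacterized proteins, 30 cytochrome P450, sugar-transfer and other metabolic enzymes, 17 transcription factors and regulators, and 15 proteins of transport and vesicle traffic. There were also 14 receptors, kinases and signalling proteins, 13 of protein turnover and folding, 12 of histones, replication, repair and the cell cycle, 9 of RNA, translation and organelles, and 7 of defence. The mean number of the 5 groups with a ZT12 maximum ran between 1.56 for RNA, translation and organelle proteins and 3.29 for defence. Of 14 lists of pathway and marker genes, AT3G20810 was the single member on any, under clock-associated genes. Of the 24 measured genes of that list, 3 were highest at ZT12 in wild type under normal watering and 2 under drought. The lists of light signalling, starch degradation, sugar and nitrogen assimilation, gibberellin and brassinosteroid synthesis, cell wall growth, ribosome biogenesis, heat shock, ABA-induced genes, flavonoid synthesis and leaf photosynthesis held 0 members, as did those of root, guard cell and floral markers. The lists are short and do not cover these functions. AIB, annotated as an ABA-inducible factor, and HUA1, annotated as a floral homeotic protein, are members on none of them.

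Tests of the time course used edgeR's quasi-likelihood test with Benjamini-Hochberg adjustment over 19037 genes, and all 150 members passed its filter on low counts. A member had a ZT12 peak where ZT12 was higher than each of ZT1, ZT8 and ZT16 at an adjusted p under 0.05. In gi-2 edgeR called 0 members under drought and 0 under normal watering (0% of all genes in each). At an unadjusted p under 0.05, edgeR gave 4 members in gi-2 under drought and 1 under normal watering, and DESeq2 also called 0 in each. Unadjusted counts, here and below, were made for members only, so no share of all genes stands beside them. Peaks were called for 1 member in aba1-6 under drought (0.00525% of all genes were called), for 1 in aba1-6 under normal watering (0.00525% of all genes) and for 2 in wild type under drought (0.0473% of all genes).

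Fewest members passed the comparison with ZT16 and most passed that with ZT1, in each of the 5 groups. In gi-2 under drought ZT12 was higher than ZT1 for 56 members (13.5% of all genes), higher than ZT8 for 8 (1.76%) and higher than ZT16 for 0 (0.0946%). In gi-2 under normal watering the counts were 47 (11.5%), 5 (1.43%) and 0 (0.137%). In aba1-6 under drought they were 75 (16.4%), 22 (5.48%) and 1 (0.268%), and in aba1-6 under normal watering 65 (14.8%), 15 (4.93%) and 1 (0.531%). In wild type under drought they were 65 (16%), 20 (4.57%) and 3 (0.888%). In the opposite direction, ZT12 was lower than ZT1 for 1 member in gi-2 under normal watering, NF-YC2 (9.69% of all genes). The members are all well-expressed genes, and among the 8745 other genes with at least 20 CPM the shares called were higher than over all genes. In gi-2 under drought these shares were 18.5% over ZT1, 2.81% over ZT8 and 0.183% over ZT16, and under normal watering 16.2%, 2.61% and 0.263%. In aba1-6 under drought they were 21.9%, 8.08% and 0.526%, and under normal watering 21.3%, 8.19% and 1.03%. In wild type under drought they were 20.3%, 6.71% and 1.35%. Beside the 0 counts over ZT16, the median log2 difference of the members was 0.07 in gi-2 under drought and 0.05 under normal watering.

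The medians show the same order of steps. The members' median log2 difference of ZT12 over ZT1 was 0.33 in gi-2 under drought, 0.21 in gi-2 under normal watering, 0.45 in aba1-6 under drought, 0.44 in aba1-6 under normal watering and 0.42 in wild type under drought. Over ZT8 it was 0.14, 0.07, 0.16, 0.14 and 0.17 in the same groups, and over ZT16 0.07, 0.05, 0.11, 0.13 and 0.06. In the well-watered wild-type libraries of the choice it was 0.52 over ZT1, 0.39 over ZT8 and 0.38 over ZT16. The median over all genes tested lay between -0.01 and 0.02 in every one of these comparisons.

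**Figure D2:**
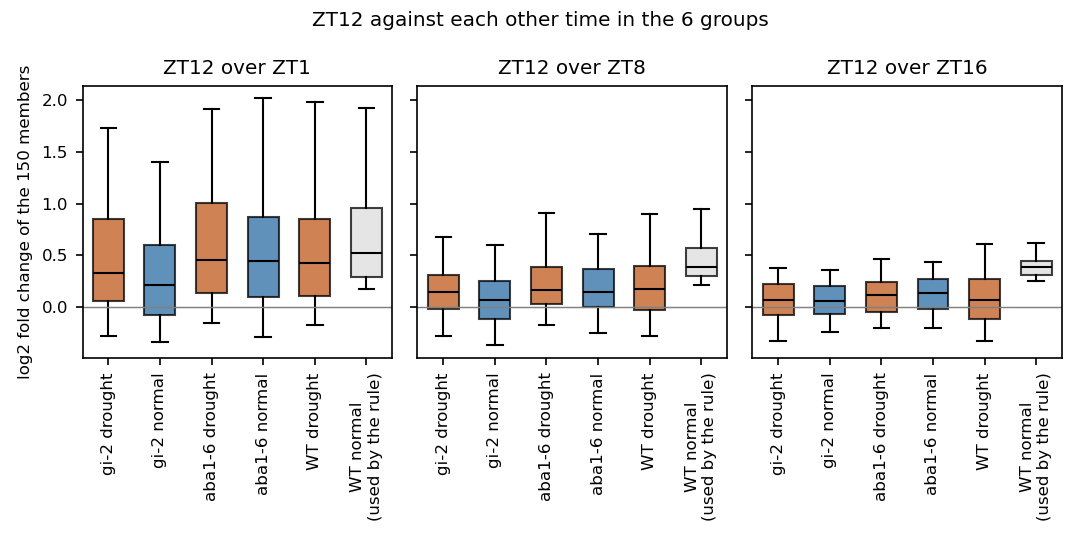
Log2 difference of ZT12 over ZT1, ZT8 and ZT16 (vertical axis) of the 150 members in each combination of genotype and watering, with boxes for the quartiles and whiskers from the 5th to the 95th percentile. The grey boxes are the wild-type, normal-watering libraries that chose the members, with medians of 0.52, 0.39 and 0.38, and the boxes of the other groups over ZT16 have medians between 0.05 and 0.13.

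AT3G20810 (JMJD5) was called as a peak in 3 of the 5 groups, aba1-6 under each watering and wild type under drought. In gi-2 under drought its level at ZT1, ZT8, ZT12 and ZT16 was 0.738 and 1.02, 39.6 and 35.7, 122.9 and 114.8, and 94.2 and 93.3 CPM. In aba1-6 under drought it was 0.763 and 0.801, 73.3 and 68.0, 150.7 and 137.2, and 98.4 and 71.6 CPM. In wild type under drought it was 2.21 and 6.58, 54.2 and 72.5, 151.7 and 157.1, and 88.2 and 115.1 CPM. In each of these groups both ZT12 libraries lay above all others, and the ZT1 libraries were near 0. The log2 difference of ZT12 over ZT16 was 0.76 in aba1-6 under drought (adjusted p 0.0076), 0.75 in aba1-6 under normal watering (adjusted p 0.00722) and 0.63 in wild type under drought (SE 0.17, adjusted p 0.0307). In gi-2 it was 0.34 under drought (adjusted p 0.785) and 0.24 under normal watering (adjusted p 0.842), where the ZT12 libraries had 100.5 and 101.8 CPM and the ZT16 libraries 79.6 and 92.0 CPM. Over ZT8 it was called in every group, with differences between 1.03 and 1.90. Whether the step to ZT16 differed between gi-2 and wild type was tested across all genes under drought, and 0 members were called. The peak in wild type under drought was lost without its ZT12 replicate 1 (adjusted p 0.0915), ZT12 replicate 2 (0.106) or ZT16 replicate 1 (0.263), with library totals as the only scaling (0.105) and in a fit of those 8 libraries alone (0.734). The peak in aba1-6 under drought was lost without ZT12 replicate 1 (0.201) or ZT16 replicate 2 (0.459). The peak in aba1-6 under normal watering was lost without ZT12 replicate 1 (0.147), ZT16 replicate 1 (0.192) or ZT16 replicate 2 (0.0516).

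**Figure D3:**
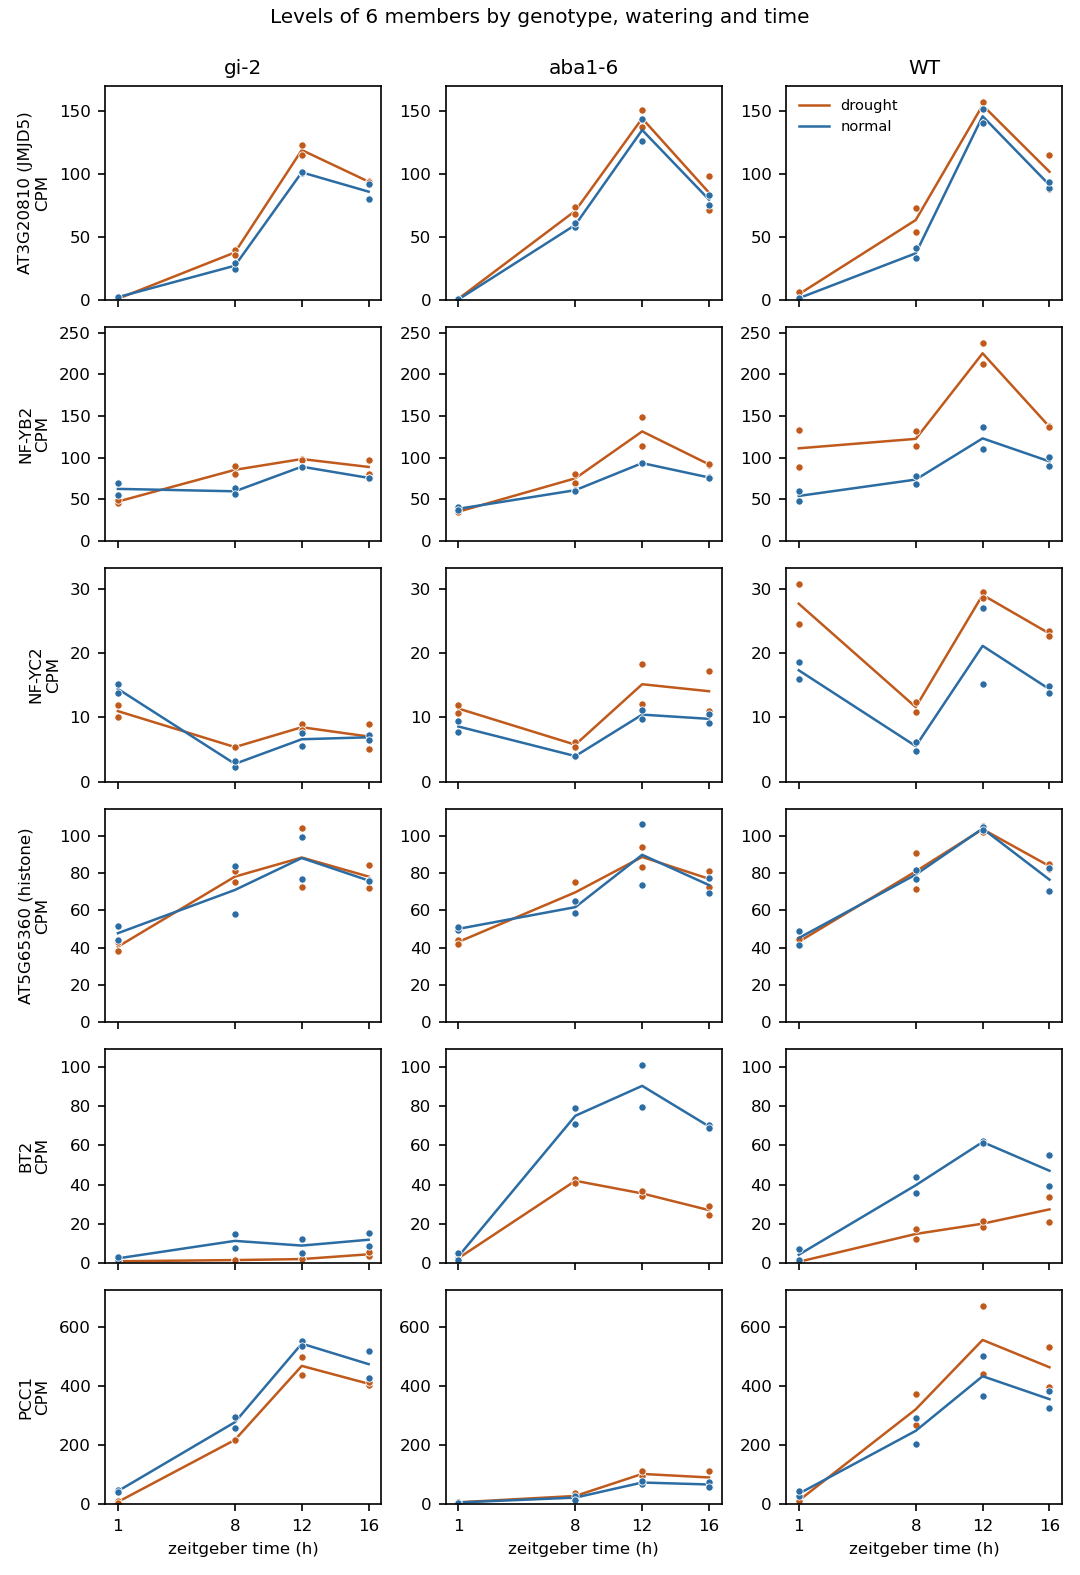
Level in TMM-scaled CPM (vertical axes) against ZT in hours (horizontal axes) for 6 members in rows, AT3G20810 (JMJD5), NF-YB2, NF-YC2, AT5G65360, BT2 and PCC1, with gi-2, aba1-6 and wild type in columns. Points are libraries and lines join the means of 2, with drought in orange and normal watering in blue; BT2 stays at or under 15.3 CPM in every gi-2 library.

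The set held 3 subunits of NF-Y, the trimeric CCAAT-binding complex whose B and C subunits take part with CONSTANS in activating FT. NF-YB2 was the other member called as a peak in wild type under drought. Its levels there were 89.0 and 133 CPM at ZT1, 113 and 132 CPM at ZT8, 213 and 238 CPM at ZT12, and 137 and 137 CPM at ZT16. The ZT12 libraries stood above the 6 others by a wide margin. The log2 difference was 0.88 over ZT8 (adjusted p 1.32e-05) and 0.72 over ZT16 (adjusted p 0.00167), and the second was lost in a fit of those libraries alone (adjusted p 0.285). In aba1-6 under drought NF-YB2 had 69.9 and 80.2 CPM at ZT8, 148 and 114 CPM at ZT12 and 90.9 and 92.6 CPM at ZT16, and in gi-2 under drought 80.5 and 90.0, 98.8 and 97.6, and 80.0 and 97.4 CPM. ZT12 and ZT16 thus nearly met in gi-2 replicate 2.

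NF-YC2 behaved differently across the day. It was higher at ZT12 than at ZT8 in 4 of the 5 groups, by 1.24 to 1.43 on the log2 scale, with a different course before that. In gi-2 under drought it had 11.9 and 10.04 CPM at ZT1, 5.42 and 5.33 at ZT8, 8.97 and 7.96 at ZT12 and 5.08 and 8.96 at ZT16. In wild type under drought it had 24.6 and 30.9, 10.9 and 12.3, 29.5 and 28.7, and 23.4 and 22.7 CPM at the same times. Its lowest time in wild type was ZT8, and ZT12 was above ZT1 in 0 of the 5 groups by the test. In gi-2 under normal watering ZT12 was lower than ZT1 (log2 difference -1.15, SE 0.26, adjusted p 0.000767), and its rise over ZT8 there was lost without ZT8 replicate 1 (adjusted p 0.312), ZT8 replicate 2 (0.054) or ZT12 replicate 1 (0.265). NF-YB3 lay between 17.6 and 44.4 CPM in all 48 libraries.

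The core histones among the members were the H3 genes AT5G65360 and AT5G10400 and the H4 gene AT5G59970. Histone genes are transcribed as DNA replicates, and the octamer printed above is a known element of plant histone promoters. AT5G65360 was highest at ZT12 in all 5 groups. At ZT12 it had 104 and 72.4 CPM in gi-2 under drought, 94.0 and 83.3 CPM in aba1-6 under drought, and 102 and 105 CPM in wild type under drought, against 43.0 and 38.1, 44.1 and 42.1, and 41.8 and 44.5 CPM at ZT1. ZT12 was higher than ZT1 by 1.11, 1.04 and 1.26 on the log2 scale (adjusted p 1.53e-06, 1.47e-06 and 5.71e-08), but the ZT8 and ZT16 libraries lay close below or overlapped, as with 90.6 CPM at ZT8 replicate 2 of wild type under drought. AT5G10400 was lower at ZT12 in gi-2 than in wild type under drought (log2 difference -0.64, SE 0.19, adjusted p 0.0248). Its values were 53.1 and 50.9 CPM in gi-2, against 58.5 and 102 CPM in wild type, and without the higher wild-type library, replicate 2, the difference was -0.17 (adjusted p 0.744). The call was also lost without gi-2 replicate 1 (0.0947) or replicate 2 (0.164), and in the fit with the replicate block (log2 difference -0.38, adjusted p 0.117). H3 is encoded by several near-identical genes, so the division of counts among them is uncertain. Other members of the class were PCNA2, the sliding clamp of replication, RFC3, a subunit of its loader, the checkpoint factor SOG1, the mitotic activator MYB3R-4, and BARD1, a repair-related ring protein. BARD1 was highest at ZT12 in all 5 groups, with 26.6 and 22.0 CPM in gi-2, 19.5 and 24.8 CPM in aba1-6, and 24.3 and 26.4 CPM in wild type, all under drought.

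The metabolic enzymes supplied 9 of the 36 members that were highest at ZT12 in 4 or 5 groups. CYP72A8, a cytochrome P450, had 54.1 and 50.2 CPM at ZT12 in gi-2, 67.7 and 100 CPM in aba1-6 and 73.0 and 88.4 CPM in wild type, all under drought. At ZT8 the same groups had 28.1 and 34.0, 48.4 and 39.5, and 39.1 and 39.1 CPM, so the ZT12 libraries lay above those of ZT8 in each genotype. The difference over ZT8 was called in aba1-6 under drought (0.93, adjusted p 0.00226) and normal watering (0.89, adjusted p 0.00546) and in wild type under drought (1.05, adjusted p 0.00116). Both aba1-6 calls were lost without ZT12 replicate 2 (adjusted p 0.109 under drought, 0.0844 under normal watering) and without ZT8 replicate 2 (0.077 and 0.0956). UGT73B2, a glucosyltransferase known to act on flavonoids, was higher at ZT12 than at ZT8 in 4 of the 5 groups, by 0.70 to 1.27 on the log2 scale, but over ZT16 in none. In wild type under drought it had 9.48 and 8.96 CPM at ZT8, 18.1 and 24.9 CPM at ZT12 and 20.9 and 19.6 CPM at ZT16. Its calls in gi-2 under drought and aba1-6 under normal watering were lost without ZT8 replicate 1 (adjusted p 0.751 and 0.134) or either ZT12 library (0.105 to 0.186 and 0.085 to 0.178), and the second also without ZT8 replicate 2 (0.185). UGT73B2 belongs to a family with close copies, so its counts are uncertain. The P450 genes CYP81K1 and CYP705A19 were also highest at ZT12 in all 5 groups. CYP81K1 at ZT12 had 25.9 and 20.2 CPM in gi-2, 18.0 and 19.0 CPM in aba1-6, and 18.4 and 21.1 CPM in wild type under drought, where a ZT8 library of wild type reached 21.6 CPM.

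Among protein turnover and folding genes, AT2G19310, an HSP20-like chaperone, was the member besides AT3G20810 with ZT12 above ZT8 in all 5 groups. It had 82.9 and 65.9 CPM at ZT12 in gi-2, 87.7 and 68.3 CPM in aba1-6 and 86.3 and 87.1 CPM in wild type under drought, against 43.8 and 46.9, 50.1 and 51.6, and 54.9 and 54.6 CPM at ZT8. The groups at ZT12 and ZT8 did not overlap. The log2 differences lay between 0.44 and 0.71. Of these calls, wild type under drought held without each library, while the 4 others were each lost without at least 1 library, at adjusted p between 0.0511 and 0.532. The wild-type call of AT2G19310 was lost in an edgeR fit of the wild-type drought libraries alone (log2 difference 0.66, adjusted p 0.0684). RMA2, a RING ubiquitin ligase of the endoplasmic reticulum membrane, was higher at ZT12 than at ZT8 in 4 groups, by 0.86 to 0.99. At ZT12 it had 13.1 and 14.7 CPM in gi-2, 32.2 and 25.3 CPM in aba1-6 and 23.4 and 19.5 CPM in wild type under drought, against 6.03 and 10.06, 13.8 and 15.6, and 9.04 and 12.5 CPM at ZT8. RMA2 in gi-2 was lost without ZT8 replicate 1 (0.47, adjusted p 0.671) or either ZT12 library (0.0961 and 0.296), and in wild type without ZT8 replicate 1 (adjusted p 0.089). Over all members, ZT12 exceeded ZT8 in at least 1 of the 5 groups for 36 and in at least 3 for 9. The same counts over groups were not made for other genes, so neither can be set against a background. In single groups, 2.61% to 8.19% of other genes with at least 20 CPM were called over ZT8. The 9 were AT3G20810, AT2G19310, UGT73B2, NF-YC2, NF-YB2, RMA2, AT4G35750, CYP72A8 and the lectin-like AT1G53070. The calls of AT4G35750 were each lost without at least 1 library, at adjusted p between 0.0575 and 0.536, and that of NF-YB2 in gi-2 under normal watering without any 1 of its 4, at 0.0769 to 0.278.

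Of the 7 defence members, 4 were highest at ZT12 in 4 or 5 groups. PCC1, a small membrane-associated protein named for its control by pathogens and the clock, was lowest at ZT1 in each genotype under drought. Its level was already higher at ZT8, before the added light, and had its highest mean at ZT12. In gi-2 under drought it had 11.2 and 3.64 CPM at ZT1, 218 and 217 at ZT8, 500 and 438 at ZT12 and 403 and 414 at ZT16. In aba1-6 under drought it had 4.86 and 7.12, 38.3 and 16.8, 93.9 and 111, and 67.5 and 113 CPM. In wild type under drought it had 12.7 and 11.1, 268 and 375, 442 and 672, and 397 and 531 CPM. ZT12 exceeded ZT1 by 5.94, 4.11 and 5.55 on the log2 scale (adjusted p 2.28e-10, 3.72e-08 and 1.64e-10). ZT12 and ZT16 overlapped in aba1-6 and wild type. The class also held the immune receptors RPM1, RPP13 and AT1G58848, the salicylic acid receptor NPR3, the lipase-like SAG101 and the protease inhibitor AT2G38870. AT2G38870, which was highest at ZT12 in all 5 groups, had 21.9 and 23.5 CPM at ZT12 in gi-2, 32.7 and 20.9 CPM in aba1-6 and 28.9 and 34.5 CPM in wild type under drought.

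The transport class held the aquaporins PIP2 and GAMMA-TIP, water channels of the plasma membrane and the vacuole. PIP2 was highest by mean at ZT12 in all 5 groups, at 18.9 and 21.5 CPM in gi-2, 31.8 and 23.1 CPM in aba1-6 and 19.6 and 19.8 CPM in wild type under drought. In wild type its ZT8 and ZT16 libraries reached 20.7 and 22.8 CPM, so the times overlapped. GAMMA-TIP was among the members furthest from a peak in wild type under drought, where it had 366 and 277 CPM at ZT1, 135 and 124 at ZT8, 243 and 167 at ZT12 and 311 and 199 at ZT16. ZT12 over ZT1 was -0.65 on the log2 scale (SE 0.28, adjusted p 0.0807). AP2, a floral organ identity factor, gave -0.64 over ZT16 there (SE 0.24, adjusted p 0.168), and AT4G22485, annotated as a lipid-transfer protein, -1.39 over ZT1 (SE 0.72, adjusted p 0.154). In aba1-6 under normal watering the mitotic activator MYB3R-4 gave -0.56 over ZT16 (SE 0.20, adjusted p 0.214). In aba1-6 under drought the factor MYB48 gave -0.47 over ZT1 (SE 0.26, adjusted p 0.179) and the carboxypeptidase-like SCPL7 -0.46 over ZT16 (SE 0.25, adjusted p 0.723).

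At ZT12 under drought, gi-2 showed lower levels of 23 members than wild type and higher levels of 0. Across all genes 4.59% were called lower and 6.89% higher, and among other genes with at least 20 CPM 5.68% and 11.1%. The members' 15.3% lower stood above both shares and their 0 higher below them. The members were chosen for a ZT12 maximum in wild type, in libraries outside this comparison, while the other genes were not. These shares are therefore no matched background. For higher levels, edgeR gave 3 members at an unadjusted p under 0.05 and DESeq2 called 0, while edgeR called 3 higher with the replicate block, 2 without the filter on low counts, 2 without wild-type replicate 1 and 1 without wild-type replicate 2. With members chosen by TMM-scaled CPM, 1 was higher and 26 lower. BT2, a BTB and TAZ domain protein known in Arabidopsis for responses to sugar and nitrogen, differed most, with 1.99 and 2.23 CPM in gi-2, against 18.6 and 21.7 CPM in wild type (log2 difference -3.23, SE 0.52, adjusted p 8.13e-05). BGLU11, a beta-glucosidase, had 5.98 and 5.89 CPM in gi-2, against 32.3 and 35.5 CPM in wild type (-2.52, SE 0.56, adjusted p 0.00337, and 0.0617 without gi-2 replicate 2). NF-YC2 had 8.97 and 7.96 CPM in gi-2, against 29.5 and 28.7 CPM in wild type (-1.79, SE 0.24, adjusted p 6.18e-07). NF-YB2 had 98.8 and 97.6 CPM in gi-2, against 213 and 238 CPM in wild type (-1.20, SE 0.15, adjusted p 4.94e-08). The groups did not overlap for any of these 4 members. The other 19 lay between -1.30 for AT5G66052, an uncharacterized protein, and -0.42 for AT4G35750, a SEC14-like lipid-transfer protein. They included AT1G29240 (-1.11), AT1G53070 (-1.05), AT1G03820 (-1.01), the glucosyltransferase-like AT3G61280 (-0.98), AT5G21940 (-0.87), UGT73B2 (-0.73) and the histone gene AT5G10400 (-0.64). AT3G61280 was lost without gi-2 replicate 2 (adjusted p 0.17) or wild-type replicate 2 (0.118), and UGT73B2 without gi-2 replicate 1 (0.0969), gi-2 replicate 2 (0.274) or wild-type replicate 2 (0.464). The count of 23 fell to 14 without gi-2 replicate 1 and to 11 without gi-2 replicate 2. By role, 7 of the 33 other or uncharacterized proteins, 5 of the 30 enzymes, 5 of the 15 transport proteins and 4 of the 17 regulators were lower, beside 1 of 14 receptors, kinases and signalling proteins, 1 of 12 for histones, replication and the cell cycle, 0 of 13 for protein turnover, 0 of 9 for RNA and organelles and 0 of 7 for defence.

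At ZT8 and ZT16 under drought all 23 also had means below wild type. The median log2 ratio of gi-2 over wild type means for the 23 was -0.31 at ZT1, with 17 of 23 below 0, -0.41 at ZT8, -0.81 at ZT12 and -0.54 at ZT16. The 23 were chosen by the ZT12 libraries, so the ZT12 median is set by that choice. For BT2 under drought the ratio was 0.21 at ZT1 but -2.61 at ZT8, -2.76 at ZT12 and -2.35 at ZT16. Over all 150 members under drought, 101 lay below 0 at ZT1 and 104 at ZT8, and 100 in each of the later times, while among other genes 46.2%, 43.4%, 44.5% and 45.4% did. Here too the other genes were not chosen by a ZT12 maximum in wild type. Tests of whether the rise between ZT8 and ZT12 under drought, or the change between ZT12 and ZT16, differed in gi-2 from wild type called 0 members each (0.73% and 0.0893% of all genes were called). At an unadjusted p under 0.05, edgeR gave 4 higher and 5 lower for the rise and 5 higher and 5 lower for the change, and DESeq2 called 0 in both.

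**Figure D4:**
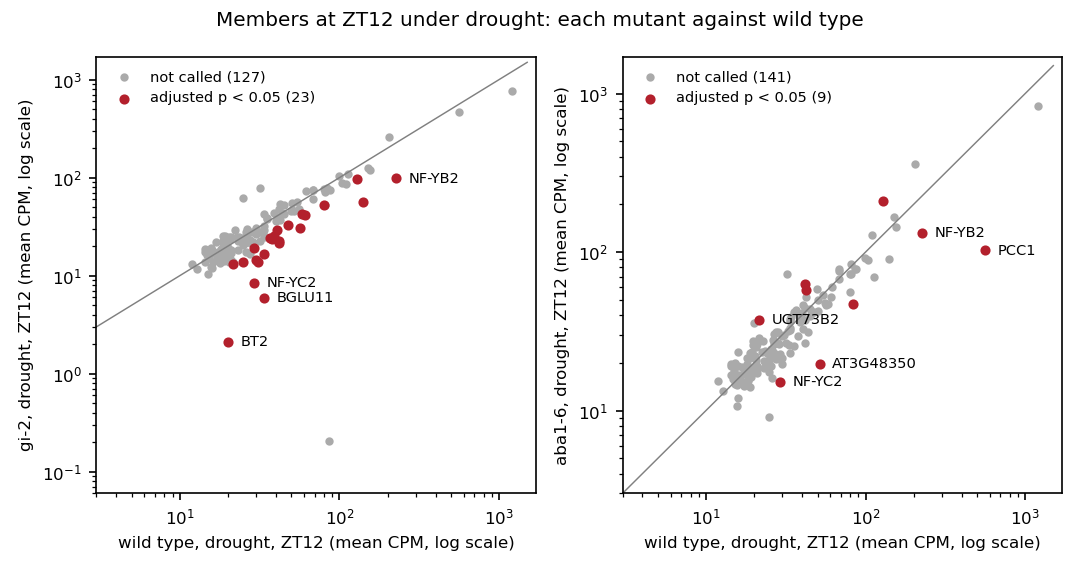
Mean level at ZT12 under drought in gi-2 (left) and aba1-6 (right) on the vertical axes against wild type on the horizontal axes, in CPM on log scales, 1 point per member, with equality as a line. The members called in each comparison are red, 23 for gi-2, all below the line, and 9 for aba1-6, on either side of it.

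In aba1-6 the differences at ZT12 under drought were fewer and ran both ways, with 4 members higher and 5 lower than wild type. Across all genes 2.42% were called higher and 2.33% lower, and among other genes with at least 20 CPM 3.2% and 2.96%, so the members' shares lie near the background. PCC1 differed most, with 93.9 and 111 CPM in aba1-6, against 442 and 672 CPM in wild type (log2 difference -2.45, SE 0.37, adjusted p 8.9e-05). AT3G48350, a cysteine endopeptidase, had 21.2 and 18.1 CPM in aba1-6, against 53.2 and 50.0 CPM in wild type (-1.38, SE 0.20, adjusted p 7.67e-06). Neither gene's libraries overlapped, and both calls held without each library. NF-YC2 (-0.92, SE 0.22, adjusted p 0.00809), CYP705A19 (-0.81, SE 0.17, adjusted p 0.00214) and NF-YB2 (-0.78, SE 0.14, adjusted p 0.00027) were the other 3 lower members. NF-YB2 had 148 and 114 CPM in aba1-6, against 213 and 238 CPM in wild type, and without aba1-6 replicate 2 the adjusted p was 0.0527 for NF-YB2 and 0.259 for NF-YC2. The 4 higher members were UGT73B2, AT4G35750, AT3G59300, a pentatricopeptide repeat protein, and RIP5, a partner of ROP GTPases. UGT73B2 had 32.8 and 41.6 CPM in aba1-6, against 18.1 and 24.9 CPM in wild type (0.77, SE 0.22, adjusted p 0.0351). AT4G35750 had 190 and 229 CPM in aba1-6, against 103 and 155 CPM in wild type (0.69, SE 0.14, adjusted p 0.000854). AT3G59300 had 63.7 and 62.7 CPM in aba1-6, against 40.9 and 43.1 CPM in wild type (0.59, SE 0.15, adjusted p 0.0105). Each of the 4 higher calls was lost without at least 1 library. Adjusted p was 0.221 without wild-type replicate 1 and 0.351 without aba1-6 replicate 2 for UGT73B2, whose call was also lost with the replicate block (0.0857), and 0.0856 and 0.0675 without the same libraries for AT4G35750. For AT3G59300 it lay between 0.0597 and 0.066, and for RIP5 between 0.0581 and 0.202, without any 1 of the 4. Without aba1-6 replicate 2 the count of 9 became 3.

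Both mutants were compared with the same wild-type libraries, so the shared entries are given side by side only. UGT73B2 differed by -0.73 in gi-2 and 0.77 in aba1-6, AT4G35750 by -0.42 and 0.69, NF-YB2 by -1.20 and -0.78, and NF-YC2 by -1.79 and -0.92. PCC1, lower in aba1-6, had 500 and 438 CPM in gi-2, against 442 and 672 CPM in wild type, where the groups overlapped. BT2, lower in gi-2, had 34.2 and 36.8 CPM in aba1-6, above the wild-type values of 18.6 and 21.7 CPM. Differences of the rise between ZT8 and ZT12 under drought in aba1-6 from that in wild type gave 0 called members (0% of all genes). Those of the change between ZT12 and ZT16 also gave 0 (0.0788% of all genes). At an unadjusted p under 0.05 edgeR gave 7 higher and 2 lower for the rise and 2 and 2 for the change, and DESeq2 called 0 in both.

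Drought against normal watering at ZT12 changed no member past the threshold in either mutant, by edgeR's quasi-likelihood test. In gi-2 the count was 0 (0.257% of all genes), with 7 higher and 6 lower at an unadjusted p under 0.05 and 1 called by DESeq2. In aba1-6 it was 0 (0.982% of all genes), with 8 higher and 4 lower unadjusted and 1 called by DESeq2. These percentages are of adjusted calls. The share of all genes at the unadjusted threshold was not counted, so the unadjusted counts show no drought response of the members. Both drought libraries lay above both normal ones for 40 members in gi-2 (24.3% of other genes did) and for 31 in aba1-6 (18.2% of other genes). They lay below for 23 in gi-2 (22.9% of other genes) and for 20 in aba1-6 (23.8% of other genes). For wild type the normal libraries chose the members, so the values are a description. There 17 members lay above and 47 below (16.4% and 22.5% of other genes). NF-YB2 had 213 and 238 CPM under drought, against 110 and 136 CPM under normal watering, in wild type, and MT2A, a metallothionein, 1092 and 1319 CPM, against 620 and 806 CPM. GAMMA-TIP had 243 and 167 CPM under drought, against 666 and 440 CPM, and BT2 18.6 and 21.7 CPM, against 62.0 and 61.3 CPM. In gi-2 the same comparison for BT2 was 1.99 and 2.23 CPM under drought, against 12.5 and 5.45 CPM under normal watering, and in aba1-6 34.2 and 36.8 CPM, against 101 and 79.7 CPM. BT2 lay lower under drought in each genotype without overlap. Root marker sums at ZT12 were also lower under drought, at 1.35 to 1.66 CPM, against 17.6 to 25.2 CPM under normal watering, in gi-2. They were 1.5 to 7.31 CPM under drought, against 11.3 to 32.3 CPM, in aba1-6 and 1.99 to 2.53 CPM under drought, against 15.1 to 21.4 CPM, in wild type. Guard cell marker sums were 53.1 to 56.0 CPM under drought, against 62.3 to 70.6 CPM, in gi-2, 66.9 to 77.5 CPM, against 78.6 to 85.9 CPM, in aba1-6, and 48.1 to 49.2 CPM, against 56.8 to 58.7 CPM, in wild type. The part of either marker list in the drought differences was not tested. In bulk shoots, fewer cells of a type and less RNA per cell cannot be told apart.

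The members first and second in rank had libraries that disagreed within groups. MAPR2, named as a membrane steroid-binding protein, lay between 0 and 172.8 CPM, under 1.5 CPM in 24 libraries and at or over 10 CPM in 23. Its neighbour on chromosome 2, AT2G24945, lies 932 bases away and was high where MAPR2 was low. In the well-watered wild type at ZT12, MAPR2 had 104.2 CPM in replicate 1 and 0.0495 CPM in replicate 2, while the sum of both genes was 104.2 and 121.8 CPM. Over all 48 libraries the sum ran only between 61.9 and 176.9 CPM, and AT2G24945 was under 1 CPM in 3 libraries. The 2 libraries of a group differed by more than 4-fold for MAPR2 in 15 of 24 groups, for AT2G01021 in 9, for BGLU11 in 2 and for AT4G22485 in 1. AT2G01021 is annotated with 102 bases near the end of chromosome 2 where ribosomal RNA genes lie. No time of day is therefore claimed for MAPR2 or AT2G01021, though both remain in the counts and medians over all members.

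**Figure D5:**
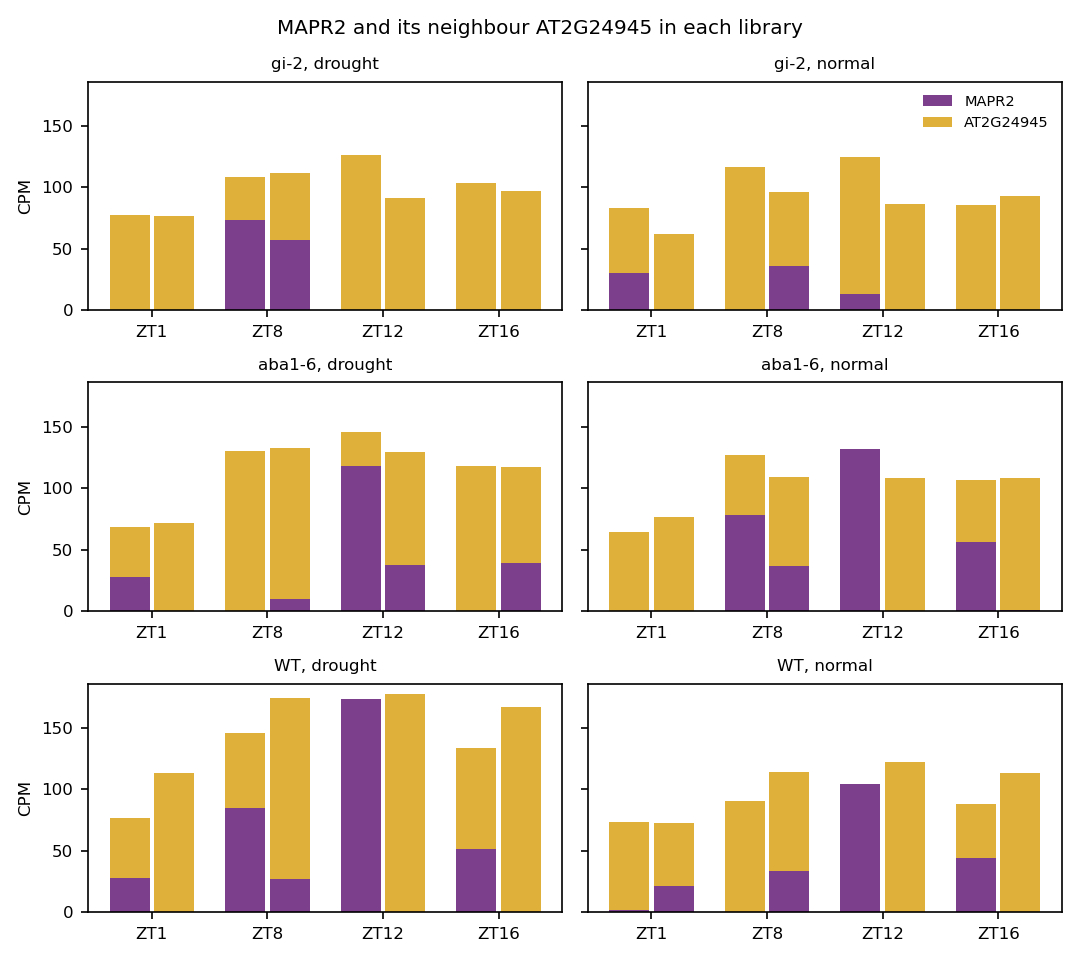
Stacked level of MAPR2 and its neighbour AT2G24945 in TMM-scaled CPM (bar height) in each of the 48 libraries. The sum stays between 61.9 and 176.9 CPM, while the share of MAPR2 switches between libraries of the same group.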

How the data were processed

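The authors deposited a table of expected counts, which are estimates with some fractions, for 26988 genes and 48 libraries, unnormalized as judged from the values (98.6% were whole). Bowtie2, RSEM, edgeR and TAIR10 are named in the submitters' processing notes, without versions or settings. Gene names were matched to 26269 loci of RefSeq TAIR10.1, used for names, positions and promoters, and 719 were not matched. Counts were rounded and fitted with R 4.3.3 and edgeR 4.0.16 (filterByExpr, 19037 genes, TMM factors between 0.862 and 1.135, 24 group means, robust quasi-likelihood test, 24 residual degrees of freedom, coefficient of variation 12.1%). Benjamini-Hochberg adjustment ran over all genes and 0.05 was the threshold. Sample levels are TMM-scaled CPM, with 2 libraries a group, whereas the choice of members used CPM of library totals.

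Groups came from sample titles. Alternatives were RLE scaling, totals only, other filters, DESeq2 1.42.0, the compared libraries alone, a replicate block, leaving out each library or the 2 shallowest, and other choices of members. Named genes were the first 12 in rank, up to 3 called members with the largest differences per direction and comparison, the 3 uncalled members with the lowest ZT12 difference per peak comparison, members on a list, the 3 genes on each side of rank 150, and GI and ABA1. Others were named after their values were seen. The members and lists were chosen with earlier results of these data known.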

Additional observations from a re-analysis of the deposited data

Results flagged for a closer look

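Drought and normal libraries at ZT12 stood on opposite sides in the 2 mutants for 8 members, of which AT4G35750 and PCC1 are named in the report. How many other genes did so was not counted, so the 8 are no result about the members. In each mutant alone such separation was common. Among other genes, drought lay above normal for 24.3% in gi-2 and 18.2% in aba1-6, and below for 22.9% and 23.8%. For AT4G35750 the log2 difference of drought over normal watering in the edgeR fit was -0.20 in gi-2, where both drought libraries lay below both normal ones. It was 0.21 in aba1-6, where both lay above. For PCC1 it was -0.22 in gi-2 and 0.47 in aba1-6, with the same separation. Neither difference between the mutants was tested, and the drought effect of neither gene was called in either mutant.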

How the results depend on the processing

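The choice of members was the least stable step: the same rule shared 128 of 150 genes when applied to TMM-scaled levels, 47 without replicate 1 and 72 without replicate 2. The counts below are of members called. Leaving out each library in turn gave 1 to 4 peaks in wild type under drought, 0 throughout in gi-2 under either watering, 0 to 4 in aba1-6 under drought and 0 to 2 under normal watering. It gave 11 to 22 members for gi-2 over wild type, 3 to 7 for aba1-6 over wild type, 0 throughout for drought in gi-2, 0 to 2 for drought in aba1-6, 0 to 1 for the ZT12 to ZT16 change in gi-2 and 0 throughout for the other differences from wild type.

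Without the filter on low counts, the counts were 6 peaks in wild type under drought, 1 in gi-2 under normal watering, 4 in aba1-6 under drought, 3 for drought in gi-2, 5 for drought in aba1-6, 20 for aba1-6 over wild type, 3 and 4 for the ZT8 to ZT12 rise in gi-2 and aba1-6, and 2 for the ZT12 to ZT16 change in aba1-6. A fit of the compared libraries alone gave 0 peaks in wild type under drought, 3 in aba1-6 under drought, 2 and 1 for drought in gi-2 and aba1-6, 11 for gi-2 over wild type and 3 for aba1-6 over wild type. DESeq2 gave 2 peaks in aba1-6 under drought and 1 for drought in each mutant. Library totals alone gave 1 peak in wild type under drought, a filter at 5 CPM 1 for drought in aba1-6, and the fit without the 2 shallowest libraries 2 peaks in aba1-6 under drought. The causes were not tested.

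The replicate block gave 2 peaks in wild type under drought, 2 and 3 in aba1-6 under normal watering and drought, 1 and 3 for drought in gi-2 and aba1-6, 1 for the rise in gi-2, 23 for gi-2 over wild type, of which 3 were higher and 20 lower, and 10 for aba1-6 over wild type. Nothing in the labels ties same-numbered libraries beyond the number. Deviations of same-numbered libraries correlated across genes at 0.442 to 0.654 between times in wild type under drought, but at -0.104 to 0.294 in gi-2, -0.100 to 0.339 in aba1-6, 0.048 for gi-2 over wild type and 0.154 for aba1-6 over wild type.

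ZT12 maxima in 5 of 5 groups numbered 6 without replicate 1 and 12 without replicate 2. Sets chosen from replicate 1 alone, an alternative added after the data were seen, held 8 such genes, 18 with 4 or 5 groups and 50 with ZT12 highest in aba1-6 under normal watering. The smallest ZT12 difference of AT2G01021 ranged from -2.98 to 0.40 in gi-2 under drought and from -1.32 to 1.16 in aba1-6 under normal watering as single libraries were left out. It turned from negative to 0.40 without gi-2 drought ZT8 replicate 2, to 0.15 without gi-2 drought ZT12 replicate 2, and to 1.16 without aba1-6 normal ZT16 replicate 2, and none of these was called. Over the named single genes and the alternatives, 962 values kept direction and call and 131 kept direction but lost the call.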

Other observations

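Families around the histone and NF-Y members were counted after the values were seen, so no test is given. Of 41 annotated histone genes, of which 3 are members, ZT12 had the highest mean for 12 in gi-2 under drought, 13 in gi-2 under normal watering, 20 in aba1-6 under drought, 25 in aba1-6 under normal watering and 27 in wild type under each watering. ZT16 was the highest time for 20 in gi-2 under drought and 16 under normal watering, for 11 in aba1-6 under drought and 10 under normal watering, and for 8 in wild type under drought and 5 under normal watering. Many of these genes have near-identical copies. Of 28 NF-Y subunit genes, 3 of them members, ZT12 was the highest time for 8 in gi-2 under drought and 5 under normal watering, for 4 in aba1-6 under drought and 6 under normal watering, and for 4 in wild type under drought and 5 under normal watering. Among other genes with at least 20 CPM, ZT12 was the highest time for 15.2% in well-watered wild type and 17% to 18.5% in the other groups. The families were counted without this floor. The share of other genes highest at ZT16 was not counted, so the histone counts at ZT16 have no background.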
